A study of Mus musculus with 7 samples.

Results

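The 38 genes described here encode the proteins that copy DNA during S phase, from the licensing of replication origins to the repackaging of the new strands into chromatin. They were listed by symbol, and all 38 were found among the 56854 gene identifiers common to the 7 libraries. The study removed tenascin C, an extracellular matrix glycoprotein of healing tendon, and asked how its loss changes gene expression after rotator cuff repair in the mouse. RNA was taken from whole shoulder joints 2 weeks after surgical repair of the left supraspinatus tendon, which all 7 mice underwent, and poly(A)-selected RNA-seq libraries were made. Of these, 3 came from wild-type mice (WT 1 to WT 3) and 4 from Tnc-/- mice (Tnc-/- 1 to Tnc-/- 4), with 1 library per mouse. Strain, sex, age and how the Tnc-/- allele was made are not given in the sources used here, and no unoperated joint was analysed here. A whole joint holds tendon, muscle, cartilage, bone and marrow, so that fewer cells of a type and less RNA per cell cannot be told apart in these bulk libraries.

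DNA replication starts when the origin recognition complex, CDC6 and CDT1 load the MCM helicase onto DNA in G1. CDC45 and the GINS complex then switch the helicase on, DNA polymerase alpha with its primase lays down primers, and polymerases delta and epsilon extend them under the sliding clamp PCNA. Many of these genes are classical targets of E2F transcription factors and are transcribed as cells pass from G1 into S, so their RNA is abundant in tissues rich in dividing cells such as marrow and is low in resting tendon.

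Because E2F control is what these genes are best known to share, their promoters were searched for an E2F-like sequence in RefSeq windows of 300 bases (250 before to 50 after the transcription start, build GRCm38.p6). The letters searched, on both strands, were TTCCCGC or its variant TTCGCGC, and TTGCCGC or its variant TTGGCGC. At least 1 of them stood in 23 of 37 windows of 32 of the genes (62.2%), against 3145 of 32851 windows of all genes (9.57%). The share was 10 of 16 windows (62.5%) for genes that were called higher in Tnc-/- joints below and 13 of 21 (61.9%) for the others, so the match did not separate them. The CCAAT box, searched by those letters on both strands, stood in 21 of 37 windows (56.8%) against 37.4% of all windows. TTTGAA, the core of the CHR element of late cell cycle genes, stood in 3 of 37 (8.11%) against 17.9%. The windows of all genes were not matched to these in base composition, and its part in the shares was not tested. No window was in the table for Gins1, Gins2, Mcm4, Pole, Prim2 and Rfc2.

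The 4 sequences that follow belong to the genes with the smallest p in the comparison below whose match lies before the start. They are shown because genes called higher (Chaf1b, Mcm5, Chaf1a) and the 1 gene called lower (Pola1) carry the same kind of match. Each reads 5′ to 3′ on the gene's strand and ends at the base before the start, with the E2F-like letters in capitals. A match is a run of letters, and binding was not measured.
Chaf1b chr16:93883651-93883900 (+ strand): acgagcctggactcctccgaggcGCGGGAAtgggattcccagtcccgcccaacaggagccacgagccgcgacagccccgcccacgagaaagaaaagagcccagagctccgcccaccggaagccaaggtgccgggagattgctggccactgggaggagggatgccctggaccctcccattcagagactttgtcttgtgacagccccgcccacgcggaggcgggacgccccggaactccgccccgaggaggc
Mcm5 chr8:75109259-75109508 (+ strand): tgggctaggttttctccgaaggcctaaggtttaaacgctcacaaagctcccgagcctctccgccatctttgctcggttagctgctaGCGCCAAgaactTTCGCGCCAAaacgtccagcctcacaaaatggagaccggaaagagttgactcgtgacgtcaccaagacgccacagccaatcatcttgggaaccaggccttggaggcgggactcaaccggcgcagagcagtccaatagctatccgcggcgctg
Chaf1a chr17:56040296-56040415 (+ strand): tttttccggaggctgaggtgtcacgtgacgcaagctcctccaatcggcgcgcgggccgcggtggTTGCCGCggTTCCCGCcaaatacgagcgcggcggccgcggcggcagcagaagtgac
Pola1 chrX:93632156-93632405 (- strand): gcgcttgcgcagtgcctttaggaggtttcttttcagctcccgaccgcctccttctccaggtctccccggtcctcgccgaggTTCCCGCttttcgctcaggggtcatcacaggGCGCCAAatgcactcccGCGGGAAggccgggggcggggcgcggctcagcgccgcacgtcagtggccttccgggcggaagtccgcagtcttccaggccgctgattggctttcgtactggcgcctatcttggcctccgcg

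In Chaf1b the single match lies 227 bases before the start. In Mcm5 there are 3 matches, of which TTCGCGC and GCGCCAA overlap, between 164 and 149 bases before it. Chaf1a is shown from 120 bases before its start and holds 2 matches, and the Pola1 promoter holds 3. The windows of Pola2, Mcm2, Pcna, E2f1 and Rfc5, which were also called higher, hold none of these letters.

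The libraries held 13464057 to 18503833 gene counts in the wild type and 19250322 to 28191101 in Tnc-/-. Tnc itself was read at 437, 292 and 327 CPM (read counts brought to a common library total, with TMM scaling) in WT 1 to 3 and at 33.4, 38.9, 39.9 and 55.0 CPM in Tnc-/- 1 to 4. WT 2 and WT 3 stood apart from the other 5 libraries: 1434 olfactory and vomeronasal receptor genes, which a joint is not known to transcribe, summed to 1393 and 978 CPM there, to 80.4 CPM in WT 1 and to 32.1 to 39.4 CPM in the Tnc-/- libraries. The wild-type files list no reads outside genes, whereas 30.07 to 32.68% of the reads in the Tnc-/- files are in rows that name no gene, so genotype and the way reads were counted cannot be told apart. The defining tendon genes Tnmd (182 to 361 CPM) and Col1a1 were present in all 7 libraries, while Scx was listed at 0 in all 7, as was B2m, which nearly every cell expresses. In the results below, a gene is called when its edgeR quasi-likelihood p, adjusted by Benjamini-Hochberg over all 17791 genes tested, is under 0.05, and p-values measure the spread between these 7 mice only.

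Over all 7 libraries, more replication genes were called higher than lower in the Tnc-/- joints. Of the 37 genes tested, 13 rose, 1 fell (Pola1, the catalytic subunit of polymerase alpha) and 23 were not called. The number that rose depended on the libraries: it was 29 without WT 1 (where 24.3% of all genes rose), 2 without WT 3 (3.27%), 4 to 6 without any other single library (3.91 to 5.73%) and 0 with the log2 receptor background as a term in the fit (1.17%). That background was higher in every wild-type library than in any Tnc-/- library, so the last fit cannot fully separate it from genotype. Marker genes of erythroid and granulocyte precursors, which are marrow cells, had median log2 fold changes of 1.198 and 1.17, and their part in the replication genes' levels was not tested. The rises ran from 0.71 to 1.31 on the log2 scale and took in the MCM helicase (Mcm2, Mcm3, Mcm5, Mcm7), the polymerase subunits Pola2 and Pold1, the clamp gene Pcna, DNA ligase 1 (Lig1) and both chromatin assembly genes (Chaf1a, Chaf1b). A rise was called for 35.1% of the tested replication genes against 10.3% of all genes tested, and a fall for 2.70% against 18.7%; 29.0% of all genes were called in either direction. The log2 fold change was above 0 in 31 of 37, with a median of 0.74 against -9.01e-04 over all genes tested. For 19 of the 37, the lowest Tnc-/- library exceeded the highest wild-type one (51.4%, against 17.7% of all genes), and for 2, Pola1 and Fen1, the order was the reverse without overlap (5.41%, against 17.4%). Tk1, thymidine kinase, was listed at 0 counts in all 7 libraries and was not tested.

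**Figure D1:**
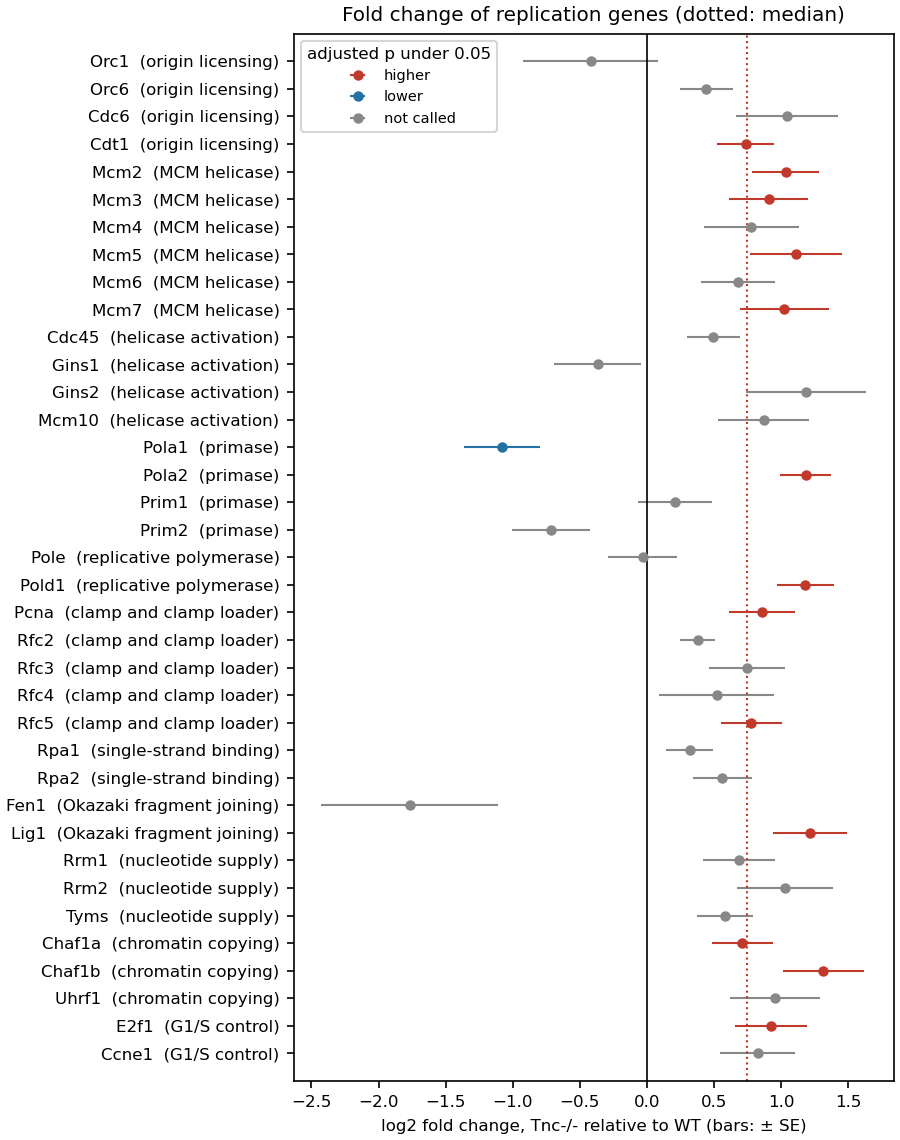
Log2 fold change, Tnc-/- relative to WT, of each of the 37 tested replication genes, grouped by role; points are edgeR estimates, bars are ± 1 SE, and colour marks the call at an adjusted p under 0.05. The 13 genes called higher lie between 0.71 and 1.31, Pola1 at -1.08 is the gene called lower, and the dotted line is the median of 0.74.

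The level of the whole set, as the mean log2(CPM + 0.5) over the 38 genes with unscaled CPM, was 4.56, 4.24 and 4.31 in WT 1 to 3 and 5.17, 4.56, 4.71 and 4.58 in Tnc-/- 1 to 4. The group means were 4.37 ± 0.16 (SD, n = 3) and 4.76 ± 0.28 (SD, n = 4), a difference of 0.39, and WT 1 was level with the lowest Tnc-/- library. With TMM scaling the difference was 0.59, and WT 1, at 4.55, lay below the Tnc-/- libraries, at 4.67 to 5.23. In unscaled CPM the difference was 0.25 without Tnc-/- 1, 0.1999 without WT 2 and WT 3, and 0.062 without WT 2, WT 3 and Tnc-/- 1. The set was therefore spread within both groups. By TMM-scaled CPM of single genes, Tnc-/- 1 was the highest of the 7 libraries for 32 of the 37. Its median difference from the mean of the other 3 Tnc-/- libraries was 0.57 (log2). WT 1 was above both other wild-type libraries for 29 genes and fell within the Tnc-/- range for 14. The median step from WT 1 up to the mean of Tnc-/- 2 to 4 was 0.23, and the step from WT 1 down to the mean of WT 2 and 3 was -0.57.

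**Figure D2:**
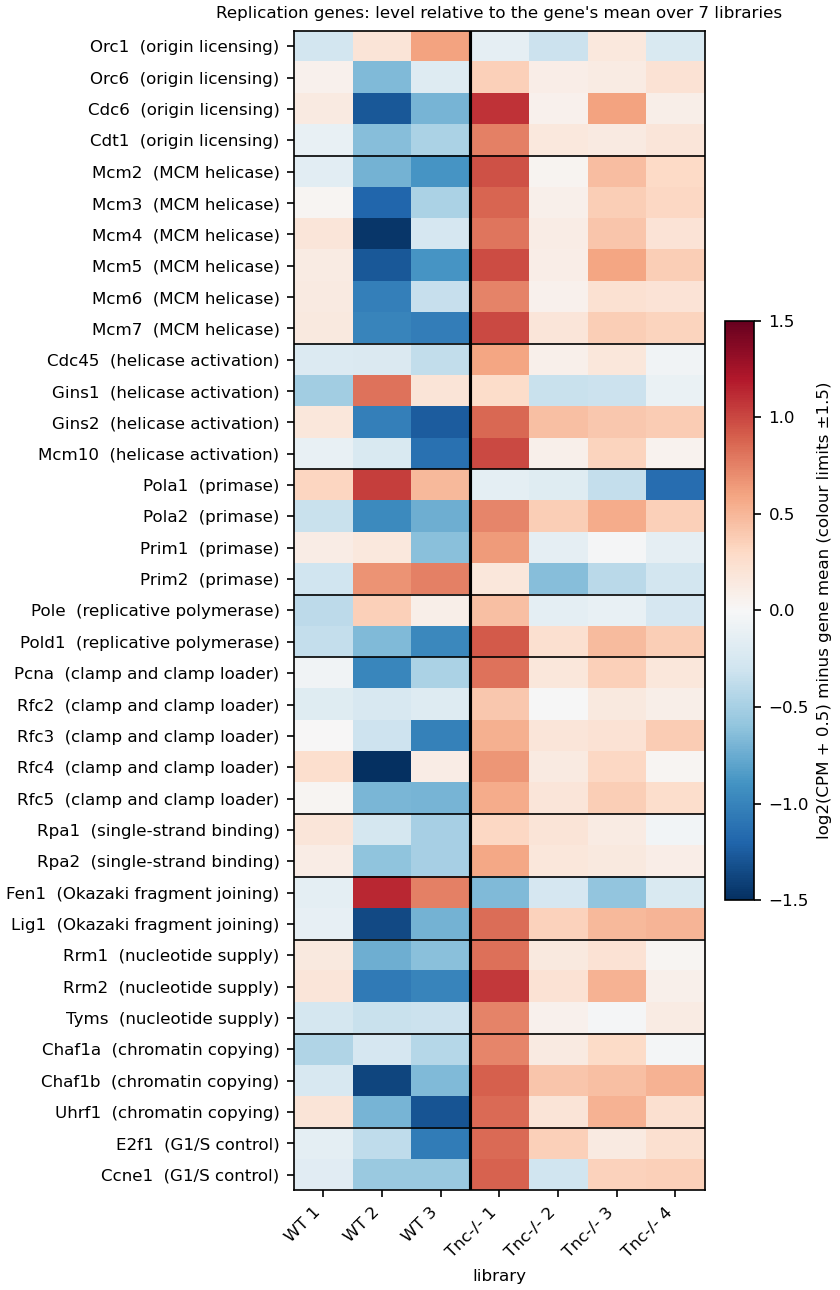
Heat map of the 37 replication genes in the 7 libraries; colour gives log2(CPM + 0.5) minus the gene's mean over the libraries, with TMM-scaled CPM. Tnc-/- 1 is the highest library in 32 rows, WT 2 the lowest in 18 and WT 3 in 12, while Pola1 and Fen1 are lower in every Tnc-/- library than in any wild-type one.

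Among the origin licensing genes, Cdt1, which brings the helicase to the origin, rose. It measured 28.6, 19.7 and 22.2 CPM in WT 1 to 3 and 52.6, 34.7, 34.0 and 35.3 CPM in Tnc-/- 1 to 4, with a log2 fold change of 0.74 ± 0.21 (SE, adjusted p = 0.0328). The groups did not overlap, and Tnc-/- 1 stood well above the other 3. Cdc6, the loading ATPase, had a larger but noisier difference (1.04 ± 0.38, adjusted p = 0.0698) with overlapping groups. Orc6, a subunit of the origin recognition complex, had 0.44 (adjusted p = 0.124) with every Tnc-/- library above the wild type. Orc1, the large ATPase subunit of that complex, lay at 1.34 to 2.98 CPM throughout, with overlapping groups and a log2 fold change of -0.42 ± 0.50 (adjusted p = 0.558).

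The MCM helicase is a ring of MCM2 to MCM7 that unwinds the DNA ahead of the fork. All 6 fold changes were above 0 (median 0.97), and Mcm2, Mcm3, Mcm5 and Mcm7 rose, where 10.3% of all genes did. Mcm2 measured 59.1, 40.3 and 35.5 CPM in WT 1 to 3 and 128, 67.9, 91.1 and 81.1 CPM in Tnc-/- 1 to 4 (1.03 ± 0.25, adjusted p = 0.0183). All Tnc-/- libraries were above all wild-type ones, though WT 1 came close to Tnc-/- 2. Mcm5 had the highest fold change of the ring (1.11 ± 0.34, adjusted p = 0.0408), but WT 1, at 65.91 CPM, was above Tnc-/- 2, at 65.01 CPM. Mcm3 and Mcm7 rose by 0.91 and 1.02 with groups that did not overlap. Mcm4 (0.78, adjusted p = 0.129) and Mcm6 (0.68, adjusted p = 0.0934) were not called, and in both the groups overlapped.

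Since the ring holds 1 copy of each subunit, the balance of the 6 genes was compared per kilobase of exon. Exon length was that of all annotated exons merged, whether or not the transcripts holding them are made in the joint. It was 6956 bases for Mcm2 and 3589 (Mcm4) to 4666 (Mcm6) for the others. The ranks and ratios below depend on these lengths, and Mcm2 is placed low partly by its own. In this unit (CPM per kb), the highest of the 6 exceeded the lowest by 2.23, 2.07 and 2.55 times in WT 1 to 3 and by 1.84, 1.98, 1.75 and 1.85 times in Tnc-/- 1 to 4. The 6 transcripts thus lay within 2.55 times of each other in every library. Mcm2 was the lowest in all libraries except WT 2, where Mcm4 was. Mcm7 was the highest except in WT 3 (Mcm6) and Tnc-/- 3 (Mcm5). The ranges of the ratio did not overlap between the genotypes, which was not tested.

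edgeR called none of the 4 genes of helicase activation, although 3 had an unadjusted p under 0.05 and were higher in every Tnc-/- library. DESeq2 called 1, Gins2 (adjusted p = 0.0425), and limma voom 0. Gins2, a GINS subunit, measured 7.30, 2.92 and 2.43 CPM in WT 1 to 3 and 12.1, 9.02, 8.73 and 8.58 CPM in Tnc-/- 1 to 4 (1.18 ± 0.45, adjusted p = 0.0783). The difference is large but so is the gap between WT 1 and the other wild-type libraries, and 67.3% of its exon bases overlap another gene. Mcm10, which helps to activate the helicase, had 0.87 (adjusted p = 0.0850), and Cdc45 had 0.49 (adjusted p = 0.0891). Gins1, the partner of Gins2 in the same complex, had -0.37 ± 0.32 (adjusted p = 0.420), with 27.8 CPM in WT 2 against 10.8 CPM in WT 1 and overlapping groups.

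Polymerase alpha and its primase form 1 complex of 4 proteins, and its genes were called in opposite directions. Pola2, the regulatory B subunit (ENSMUSG00000024833), had the smallest p of all replication genes. It measured 26.3, 16.9 and 19.9 CPM in WT 1 to 3 and 55.4, 43.3, 49.3 and 42.9 CPM in Tnc-/- 1 to 4. The group means were 21.01 ± 4.81 (SD, n = 3) and 47.7 ± 5.92 (SD, n = 4) CPM, a 2.27-fold difference (log2 1.18 ± 0.19, adjusted p = 0.0068), and the groups were well separated.

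Pola1, the catalytic subunit (ENSMUSG00000006678), fell. It measured 23.4, 38.5 and 26.2 CPM in WT 1 to 3 and 16.7, 16.3, 14.4 and 8.11 CPM in Tnc-/- 1 to 4 (log2 -1.08 ± 0.29, adjusted p = 0.0235). WT 2 was the highest and Tnc-/- 4 the lowest, and the groups did not overlap. Prim2, the large primase subunit, had -0.71 ± 0.29 (adjusted p = 0.0923): WT 2 and WT 3 were at 42.7 and 45.2 CPM, while WT 1, at 21.5 CPM, lay inside the Tnc-/- range. Prim1, the catalytic primase subunit, had 0.21 (adjusted p = 0.605) with overlapping groups.

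Gene span, taken from GENCODE M21, moved with the fold change over the whole table, and Pola1 and Prim2 are the longest of the replication genes (327 and 216 kb). The median log2 fold change of all tested genes was 0.29 for spans up to 10 kb, 0.15 from 10 to 30 kb, -0.15 from 30 to 100 kb, -0.69 from 100 to 300 kb and -2.71 above 300 kb. Prim2, at -0.71, sat at the median of its band, and Pola1, at -1.08, was above that of its own. In the shorter bands the replication genes lay above the other genes: their medians were 0.78 (8 genes), 0.87 (21 genes) and 0.41 (6 genes). The part of gene span in these differences was not tested beyond this comparison.

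**Figure D3:**
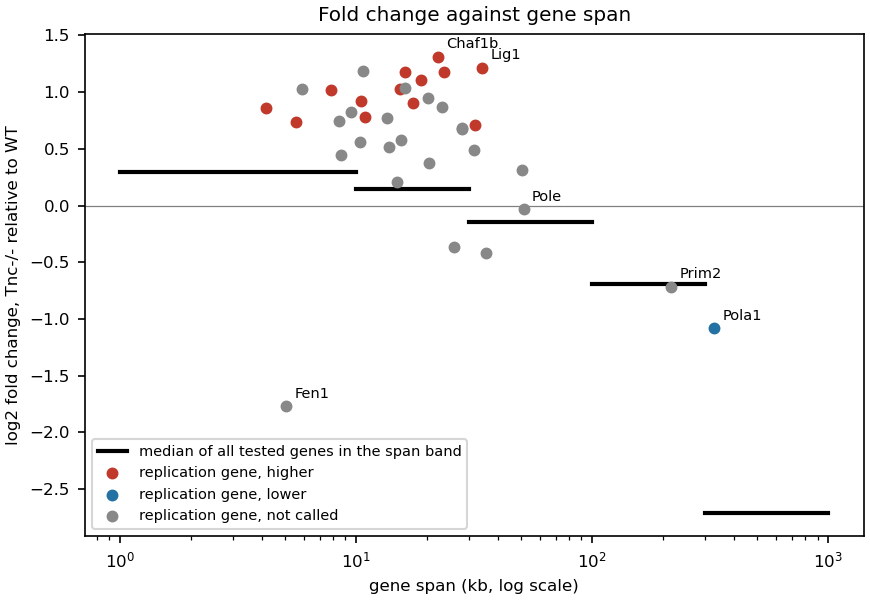
Log2 fold change (Tnc-/- relative to WT) of each tested replication gene against the length of the gene in kb (log axis), with black bars for the median of all tested genes in each span band. The band medians run from 0.29 at up to 10 kb to -2.71 above 300 kb; Prim2 lies on its band's median and most shorter replication genes lie above theirs.

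Of the replicative polymerases, Pold1, the catalytic subunit of polymerase delta (ENSMUSG00000038644), rose. It measured 32.8, 26.4 and 21.4 CPM in WT 1 to 3 and 80.3, 50.03, 58.9 and 54.6 CPM in Tnc-/- 1 to 4, a 2.26-fold difference of the means (log2 1.18 ± 0.21, adjusted p = 0.0079). The lowest Tnc-/- library exceeded the highest wild-type one by a wide margin. Pole, the catalytic subunit of polymerase epsilon, had a log2 fold change of -0.03 ± 0.26 (adjusted p = 0.935), with 13.7 to 23.4 CPM in the wild type and 15.2 to 25.0 CPM in Tnc-/-.

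Pcna and the 4 small clamp loader genes of the set had log2 fold changes above 0, and 2 of these 5 genes rose, where 10.3% of all genes did. Rfc1, the large loader subunit, is not among the 38 genes, and its log2 fold change was -0.06 (adjusted p = 0.808). Pcna, the clamp itself, measured 81.0, 42.6 and 60.5 CPM in WT 1 to 3 and 148, 95.0, 108 and 94.4 CPM in Tnc-/- 1 to 4 (0.86 ± 0.25, adjusted p = 0.0310). The groups did not overlap. The processed copy Pcna-ps2 held 6 to 39 counts per library, and Pcna-ps1 was listed at 0. Rfc5 rose by 0.78 ± 0.23 (adjusted p = 0.0350). Of the other clamp loader subunits, Rfc2 (0.38, adjusted p = 0.0580) and Rfc3 (0.74, adjusted p = 0.0793) had groups that did not overlap but were not called. Rfc4 (0.52 ± 0.43, adjusted p = 0.389) overlapped, with WT 2 at 3.52 CPM against 13.0 and 11.8 CPM in the other wild-type libraries.

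Neither gene of the single-strand binding protein RPA was called by edgeR, DESeq2 or limma voom, and 1, Rpa2, had an unadjusted p under 0.05. Rpa2 measured 31.5, 18.9 and 20.5 CPM in WT 1 to 3 and 43.5, 32.6, 32.1 and 31.2 CPM in Tnc-/- 1 to 4 (0.56 ± 0.22, adjusted p = 0.0858). WT 1 overlapped the lowest Tnc-/- library. Rpa1, the large subunit, which also acts in DNA repair, had 0.32 ± 0.18 (adjusted p = 0.203), and WT 1, at 85.5 CPM, lay within the Tnc-/- range of 72.9 to 93.7 CPM.

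The 2 enzymes that finish Okazaki fragments read in opposite directions. Lig1, the ligase that seals the nicks (ENSMUSG00000056394), rose: it measured 40.0, 16.8 and 26.7 CPM in WT 1 to 3 and 78.9, 56.0, 61.5 and 62.5 CPM in Tnc-/- 1 to 4 (1.22 ± 0.27, adjusted p = 0.0134). Every Tnc-/- library was above every wild-type library. Fen1, the flap nuclease, held 12, 34 and 27 counts in WT 1 to 3 and 8, 10, 6 and 11 counts in Tnc-/- 1 to 4 (-1.77 ± 0.66, adjusted p = 0.0738). The groups did not overlap, but the gene was thinly counted. Other genes overlap 84.2% of its exon bases, and 11.43 to 11.58% of the reads in the Tnc-/- files were set aside as ambiguous between genes, so the Fen1 values are uncertain. Chaf1a, of which 52.5% overlaps, and Gins2 are the other genes above 50%.

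In nucleotide supply, edgeR called none of the 3 tested genes, all of which had an unadjusted p under 0.05; DESeq2 called 1, Rrm2 (adjusted p = 0.0195), and limma voom 0. Rrm2, the S phase subunit of ribonucleotide reductase, measured 88.9, 37.4 and 39.0 CPM in WT 1 to 3 and 164, 90.8, 113 and 82.3 CPM in Tnc-/- 1 to 4 (1.03 ± 0.36, adjusted p = 0.0600). WT 1 lay above Tnc-/- 4. Rrm1, the large subunit, had 0.69 (adjusted p = 0.0839), with overlapping groups, and Tyms, thymidylate synthase, had 0.58 (adjusted p = 0.0666), with groups that did not overlap.

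The 3 genes that copy chromatin had log2 fold changes above 0, and 2 of them rose, where 10.3% of all genes did. Chaf1b, a subunit of chromatin assembly factor 1 (ENSMUSG00000022945), had the highest fold change of the genes called: it measured 12.0, 5.18 and 8.81 CPM in WT 1 to 3 and 27.0, 19.1, 19.7 and 20.6 CPM in Tnc-/- 1 to 4 (1.31 ± 0.30, adjusted p = 0.0145). The lowest Tnc-/- library stood above the highest wild-type one. Chaf1a, its large partner, rose by 0.71 ± 0.23 (adjusted p = 0.0463), with groups that did not overlap. Uhrf1, which carries DNA methylation through replication, had 0.95 ± 0.33 (adjusted p = 0.0620), with WT 1 and Tnc-/- 2 level at 71.6 CPM.

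Of the G1/S regulators, E2f1, a transcription factor that drives many of these genes, rose. It measured 20.7, 17.5 and 10.8 CPM in WT 1 to 3 and 41.7, 29.5, 25.1 and 27.3 CPM in Tnc-/- 1 to 4 (0.92 ± 0.27, adjusted p = 0.0329), and the groups did not overlap. Ccne1, cyclin E1, the activator of CDK2 at the start of S phase, had 0.82 ± 0.28 (adjusted p = 0.0569), with Tnc-/- 2, at 15.2 CPM, below WT 1, at 16.6 CPM.

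By other tests of all 7 libraries, 18 genes were called higher with DESeq2 and Benjamini-Hochberg adjustment (12.3% of all genes), 1 with DESeq2 and Bonferroni adjustment (1.57%) and 4 with limma voom (4.09%). With library totals in place of TMM 5 were called higher (5.35%), and likewise 5 with TMM from genes of at most 10 kb (4.46%). The calls also depended on which wild-type libraries were kept, and WT 2 and WT 3 had the high receptor background. Without WT 1, 29 of 37 genes were called higher and 3 lower (Pola1, Prim2 and Fen1), where 24.3% and 39.9% of all genes were. Without WT 2, WT 3 or Tnc-/- 1, in turn, 4, 2 and 4 genes were called higher, against 5.54%, 3.27% and 4.82% of all genes. Without Tnc-/- 2, 3 or 4, in turn, 6, 4 and 5 were called higher, against 5.73%, 3.91% and 5.14%. With WT 1 as the only wild-type library, taken to vary as the Tnc-/- ones do, the median was 0.39 and only Pola2 was called (2.53% of all genes were called higher). Without Tnc-/- 1 as well, the median was 0.25, and Pola2, Pold1 and Lig1 were called (4.36% of all genes higher). With the log2 receptor background as a term in the fit, no replication gene was called, the median was 0.23, and 3 had an unadjusted p under 0.05. There, 28 of 37 were above 0, but not all of these were among the 31 above 0 in the first fit. In that fit 1.17% of all genes were called higher. Every wild-type library had more of this background than any Tnc-/- library. The fit therefore cannot fully separate background from genotype, and it estimates the genotype difference poorly.

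Single genes differed in how far they held. Pola2 was called in each of the 7 fits that left out 1 library and in 19 of 20 alternatives in all. Its log2 fold change was 0.86 (adjusted p = 0.0352) against WT 1 alone and 0.71 (adjusted p = 0.163) with the background term. Pold1 was likewise called in each of those 7 fits, with 0.89 (adjusted p = 0.0603) against WT 1 alone and 0.82 (adjusted p = 0.197) with the background term. Lig1, Chaf1b and Mcm2 were called in 6, 5 and 4 of the 7, and the other 8 genes called higher in 1 of the 7, the fit without WT 1. Pola1 was called lower in 4 of the 7 fits, not without WT 2, WT 3 or Tnc-/- 3, and in 11 of 20 alternatives in all, with limma voom and the replicate block among those that did not call it. Against WT 1 alone, Pola1 was at -0.76 (adjusted p = 0.164), Prim2 at 0.04 and Fen1 at -0.56, so that the lower values of Prim2 rested on WT 2 and WT 3. The 13 genes called higher had a fold change above 0 in each of the 20 alternatives that tested them, but for several of them it was close to 0 with the background term. There, Mcm7 was at 0.064 (1.02 without the term), Mcm5 at 0.086 (1.11), Mcm3 at 0.13 (0.91), Rfc5 at 0.13 (0.78) and Pcna at 0.26 (0.86), with adjusted p-values from 0.718 to 0.943.

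**Figure D4:**
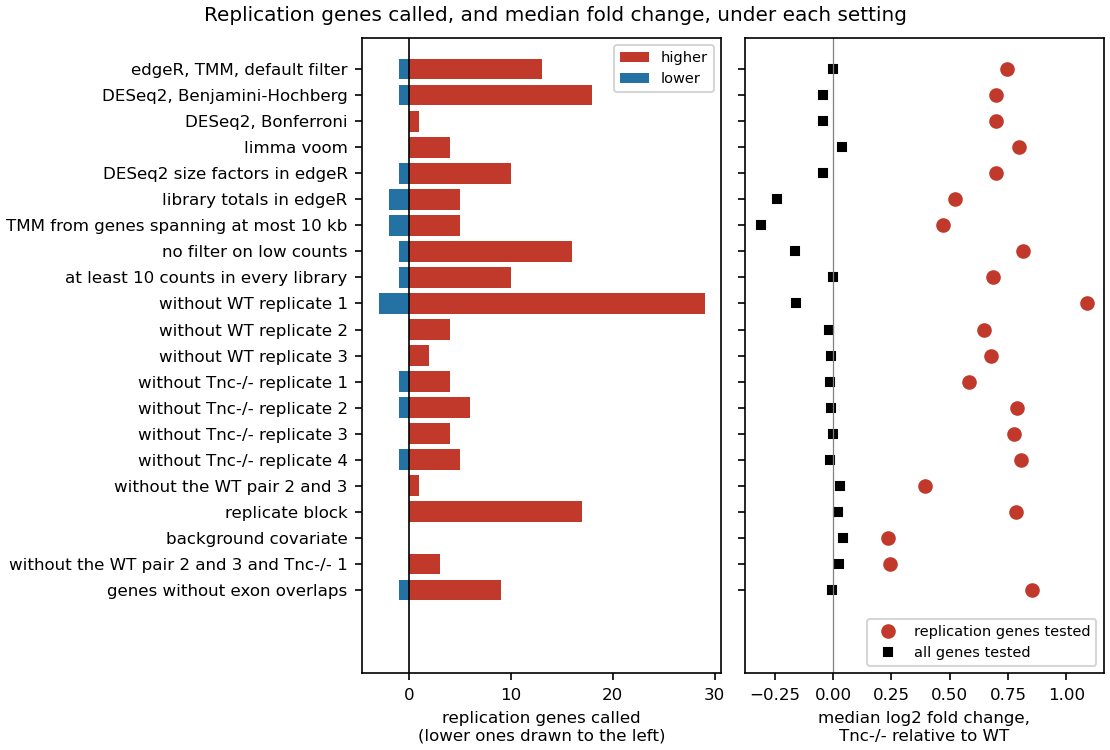
Left, the number of replication genes called higher (red) and lower (blue, to the left of 0) under the first setting and 20 alternatives; right, the median log2 fold change of the replication genes (red) and of all genes tested (black). The median of the replication genes lies above that of all genes in each setting, from 0.23 with the background covariate to 1.09 without WT 1, while the number called higher runs from 0 to 29.

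Other genes of the pathway were listed to set beside these. Of 91 further replication and G1/S genes, 90 were found and 86 tested: 15 rose, 1 fell and 70 were not called, with a median of 0.28, where 10.3% of all genes rose and 18.7% fell. In the single lists that follow, of at most 21 genes, 1 gene is a large share, and a count of 1 is close to that background. Chtf8, Pclaf, Asf1a and Cdkn2b were listed at 0 in all 7 libraries. E2f2, an activating E2F, rose by 1.33 ± 0.28 (adjusted p = 0.0105), from 46.2 to 84.8 CPM in the wild type to 124 to 227 CPM in Tnc-/-, and 5 of the 21 further G1/S genes rose in all. Of the CDK inhibitors, which hold cells in G1, 1 of 6 tested rose, Cdkn2d (1.08 ± 0.21, adjusted p = 0.0088).

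In the remaining lists, the gene with the smallest p among those that rose was Lrwd1 in origin licensing (0.91, 1 of 7 rose), Timeless in fork protection (0.58, 3 of 10), Pole3 among polymerase accessory subunits (0.53, 1 of 6), Dna2 in primer removal (0.74, 1 of 7), Dut in nucleotide supply (0.75, 2 of 8) and the maintenance methyltransferase Dnmt1 in chromatin copying (0.999, 1 of 7 tested). Chek1, the replication checkpoint kinase, fell by 0.97 (adjusted p = 0.0324). edgeR called none of the 9 further helicase activation genes, of the 4 tested clamp loader genes or Rpa3, and 2, 1 and 0 of them had an unadjusted p under 0.05. Of the accessory polymerase subunits other than Pole3, none of the 5 was called by edgeR, and none had an unadjusted p under 0.05: Pole2 was at 0.27, Pold2 at 0.40, Pold3 at 0.13, Pold4 at 0.37 and Pole4 at -0.31.

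Genes of mitosis and of erythroid and granulocyte precursors moved alongside, each list with a larger share of called rises than the 10.3% of all genes (18.7% fell). Of 19 tested mitosis genes, 10 rose and none fell (median 0.74), and their summed level was 780, 461 and 575 CPM in WT 1 to 3 and 1538, 922, 1012 and 886 CPM in Tnc-/- 1 to 4. Of 13 tested genes of erythroid precursors, 9 rose (median 1.198), with summed levels of 2734 to 5458 CPM in the wild type and 6875 to 13181 CPM in Tnc-/-. Of 12 genes of granulocyte precursors, 8 rose (median 1.17), with summed levels of 2931 to 6199 CPM and 6834 to 11673 CPM. In the summed levels of these 3 lists, as in that of the replication genes, Tnc-/- 1 was the highest library and WT 2 the lowest. Of the B cell precursor genes, also of marrow, 1 of 7 tested rose and none fell, with a median of 0.66. The share of marrow cells in each joint was not measured.

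Lists of joint tissue cells and of mature immune cells differed from one another, and their counts are to be read against the 10.3% of all genes that rose and the 18.7% that fell. In skeletal muscle 2 of 8 genes rose, but all 8 had fold changes above 0, with a median of 0.70, close to the 0.74 of the replication genes. Their summed level was 21225 to 29627 CPM in the wild type and 31231 to 45962 CPM in Tnc-/-, with no overlap, and Tnc-/- 2 was the highest library. In the adipocyte list 1 of 4 genes rose, and all 4 were above 0, with a median of 0.47. The part of muscle and fat in the replication genes' levels was not tested. In tendon, fibroblast and endothelial lists, none rose and 1 of 6, 1 of 7 and 2 of 5 tested genes fell, with medians of 0.060, -0.041 and -0.14. In the T cell list 2 of 8 fell (median -0.55), and the mean log2(CPM + 0.5) of the list was 1.46 in WT 1, 2.58 and 2.17 in WT 2 and WT 3, and 1.51 to 1.65 in Tnc-/-, so WT 1 lay below every Tnc-/- library. Macrophage and cartilage lists held no called gene of 8 and 6, and none with an unadjusted p under 0.05, with medians of 0.35 and 0.036. In the bone list 1 of 6 rose, with a median of 0.043. Defining genes at 0 in all libraries were Prc1 (mitosis), Alas2 (erythroid), Rag1 and Rag2 (B cell precursor) and Scx (tendon).

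**Figure D5:**
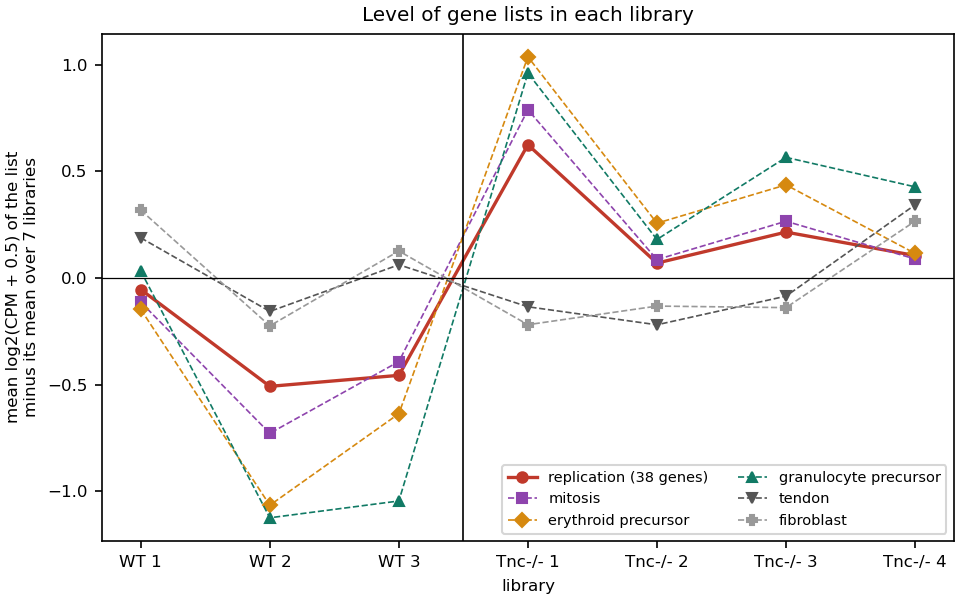
Mean log2(CPM + 0.5) of each gene list in each library, minus the list's mean over the 7 libraries (TMM-scaled CPM). The replication genes (red), mitosis genes and erythroid and granulocyte precursor genes are lowest in WT 2 and WT 3 and highest in Tnc-/- 1. Tendon and fibroblast genes are lower in both WT 2 and Tnc-/- 1 than in WT 1, and WT 2 is the lowest library for fibroblast genes.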

How the data were processed

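Per the labels, poly(A)-selected RNA of whole shoulder joints was sequenced from libraries made with a NEBNext Ultra kit. The deposited files hold raw read counts per gene for each library, and the submitters' processing notes name FastQC 0.11.9, HISAT2 2.2.1, HTSeq 2.0.2, DESeq2 1.38.3 and the mouse build GRCm39 (mm39); whether counting used strand is not given in the sources used here. Counts of the 56854 identifiers present in all 7 files were used, and rows naming no gene (30.07 to 32.68% of reads in the Tnc-/- files) were left out of library sizes. Genes were filtered by filterByExpr, scaled by TMM and tested between genotypes with edgeR 4.0.16 (quasi-likelihood F test, two-sided, Benjamini-Hochberg over 17791 genes, threshold 0.05) in R 4.3.3; the fit was tested on simulated counts. CPM values are TMM-scaled unless stated, and the set level uses a pseudocount of 0.5. Spans, exon lengths and overlaps came from GENCODE M21, which held 91.5% of the identifiers. Promoters came from RefSeq (GRCm38.p6). Alternatives used DESeq2 1.42.0, limma 3.58.1 (voom), other scalings and filters, each library left out, a replicate block and a background covariate. In each role, the gene with the smallest p is given in every library, and each gene not called, called lower or with overlapping groups is named; in each further list, the called gene with the smallest p per direction is named, and all CDK inhibitors called. Genes and lists were chosen with earlier results of these data known. Replicate numbers did not pair the libraries. Libraries of the same genotype differed from each other beyond counting noise.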

Additional observations from a re-analysis of the deposited data

Results flagged for a closer look

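In the Tnc-/- group, 6 of 52 tested values had 1 library far from the other 3 by Dixon's criterion, which flags about 1 in 20 by chance, and in all 6 it was Tnc-/- 1. These were Cdt1 (52.6 CPM, the others 34.0 to 35.3), Gins2 (12.1 CPM, the others 8.58 to 9.02), Prim1 (31.8 CPM, the others 18.4 to 19.99), Pole (25.0 CPM, the others 15.2 to 16.8), Rpa2 (43.5 CPM, the others 31.2 to 32.6) and Tyms (45.2 CPM, the others 26.5 to 29.3). Of these, only Cdt1 was called between the genotypes. Without Tnc-/- 1 its adjusted p was 0.0855. The wild-type group of 3 was not tested by this criterion. Tnc-/- 1 was the highest of the 4 Tnc-/- libraries for 35 replication genes, so the flagged values are not independent of one another. Their number can therefore not be set against the 1 in 20.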

How the results depend on the processing

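The number of all genes called (5159) was 1653 with DESeq2 and Bonferroni adjustment, 1004 with limma voom, 825 without WT 2 and WT 3, 448 with the background covariate and 1445 without WT 2, WT 3 and Tnc-/- 1 (an alternative chosen after seeing the data), and ran from 2229 to 14113 when 1 library was left out. The number of replication genes called (14) was 1, 4, 1, 0 and 3 in the same settings, 7 with library totals or with TMM from genes of at most 10 kb (5 higher and 2 lower in each, where 30.9% and 31.1% of all genes were called), and 2 to 32 with 1 library left out. Both scalings shifted the median of all genes, to -0.24 and -0.31, and that of the replication genes to 0.52 and 0.47. Of the further pathway genes (16), 25 were called with DESeq2 and Benjamini-Hochberg, 0 with Bonferroni, 3 with voom, 0 without WT 2 and WT 3, 0 with the covariate, 6 without those and Tnc-/- 1, and 9 of 42 among genes free of exon overlaps (added after seeing the data; 29.9% of all such genes were called), with 1 to 49 when 1 library was left out (49 without WT 1, where 64.2% of all genes were called). These counts of further pathway genes are out of 86 tested, except the 42 free of exon overlaps. Of all genes, 29.0% were called in the first setting and 35.1% with DESeq2 and Benjamini-Hochberg. The share was 9.29% with Bonferroni, 5.64% with voom and 2.52% with the covariate. The difference in set level over all libraries was 0.39 in unscaled CPM and 0.59 with TMM scaling. In unscaled CPM it was 0.062 without WT 2, WT 3 and Tnc-/- 1 and 0.25 to 0.48 with 1 library left out. The cause of these shifts was not tested.

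The replicate numbers did not pair the libraries: same-numbered deviations correlated at -0.0053, 0.102 and -0.0055. With the replicate number as a block, 1932 of all genes and 17 replication genes were called, all 17 higher and 11 of them among the 13, and Pole turned to 0.047. Tnc-/- 4 has no wild-type library of its number, so it did not inform the genotype difference in that fit.

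Direction turned only in genes that were not called. Pole (-0.03) was above 0 with voom (0.032), no filter (0.057), without WT 2 (0.16), Tnc-/- 2 (0.014), Tnc-/- 3 (0.0040) or Tnc-/- 4 (0.043), without both WT 2 and WT 3 (0.42), with the covariate (0.66) and without WT 2, WT 3 and Tnc-/- 1 (0.23). Prim1 (0.21) was below 0 with library totals (-0.021), short-gene TMM (-0.075), without WT 3 (-0.0054) or Tnc-/- 1 (-0.036; it ranged up to 0.41 without WT 1) and without WT 2, WT 3 and Tnc-/- 1 (-0.22). Without WT 2, Gins1 was at 0.028, and it ranged down to -0.55 without WT 1. Without both WT 2 and WT 3, Orc1 was at 0.20, Gins1 at 0.44, Prim2 at 0.043 and Rpa1 at -0.036. With the covariate, Orc1 was at 0.40, Gins1 at 0.81, Prim2 at 0.34, Orc6 at -0.038, Mcm4 at -0.11, Mcm6 at -0.050, Rfc4 at -0.27, Rpa1 at -0.14, Rpa2 at -0.026 and Rrm1 at -0.0046. Without WT 2, WT 3 and Tnc-/- 1, Orc1 was at 0.21, Gins1 at 0.28, Rfc4 at -0.099, Rpa1 at -0.094 and Rrm1 at -0.019. Precision is limited by the number of mice, by the gap between WT 1 and the other 2 wild-type libraries and, for Fen1 and Orc1, by few counts.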
